A study of Mus musculus with 6 samples.

Results

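Both knockdowns, 4 libraries in all, were compared as 1 group with 2 control libraries, for the inclusion of alternative splicing events in primary mouse medullary thymic epithelial cells (mTECs). These 6 libraries were all the samples of the series. The knockdown libraries were Raver2 sh1, Raver2 sh2, Setd2 sh1 and Setd2 sh2, each with its own short hairpin RNA (shRNA), and the controls (Ctr) were a library with an shRNA against LacZ, a bacterial gene, and its replicate. Every library therefore came from cells infected with a GFP-bearing pLKO.3G lentivirus, grown on a fibrin gel that held human dermal fibroblasts, and sorted 5 days later as DAPI- I-A/E+ GFP+. The mTECs had first been isolated as CD45- EpCAM+ Ly51- I-A/E+ cells. The labels give no strain, age or number of mice, and do not say whether the libraries came from separate cultures, so p-values measure only the spread between these libraries. The study asked how loss of each factor bears on splicing of Aire-sensitive and other genes. The question here is which events differed from Ctr in the same way under all 4 hairpins.

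Raver2 is an RNA-binding protein of the nucleus known as a partner of the polypyrimidine tract binding protein (PTB, gene Ptbp1), a repressor of exon inclusion. Setd2 is the methyltransferase that trimethylates histone H3 at lysine 36 along transcribed genes, a mark that adaptor proteins link to the choice of exons. Medullary thymic epithelial cells transcribe a wide range of tissue-restricted genes, many of them driven by Aire, the autoimmune regulator, and so show self-antigens to developing T cells. An alternative event adds or leaves out a stretch of RNA. Its inclusion frequency, a fraction from 0 to 1, is read here as the share of a gene's transcripts that contain the stretch. How the fraction was computed is not stated in the sources used here.

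Genes were listed by symbol, with 1 or more events each and no coordinates. The comparison covered 4658 events in 2685 genes that had equal numbers of events in all 6 libraries, out of 2898 genes with an event in at least 1 library, and 213 genes were left out. Neither Raver2 nor Setd2 had a listed event in any library, so the knockdown of either target cannot be checked in these data. The libraries listed 4777 to 4949 events, and no read count stood behind any fraction, so the depth of each value is unknown. Of the marker genes of each cell type, 2 of 10 for thymic epithelium (Aire and Cd74), 1 of 10 for fibroblasts (Postn) and 4 of 10 for leukocytes (Ptprc, Cd8a, Lck and Cd247) had a listed event. These fractions do not carry the expression level of a gene, so the labelled cell type could not be checked further. Pearson's r over the events was 0.796 between the Ctr libraries, 0.789 to 0.809 between the 6 pairs of knockdown libraries, including pairs with different targets, and 0.753 to 0.765 between the 8 pairs of a Ctr and a knockdown library, pairs that share libraries. Anything other than the hairpin that was common to both Ctr libraries cannot be told apart from an effect common to both knockdowns.

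The deposited tables do not say which exon an event is. In genes with exactly 1 listed event, the GENCODE M21 annotation of mm10 (GRCm38) was therefore searched for cassette exons, coding exons that some annotated protein-coding transcripts carry and others skip. Of the 1677 genes with 1 event, 1570 were found in this annotation, among them 54 of the 56 whose event passed the pooled test described below. Exactly 1 such exon was found in 574 of the 1570 (36.6%) and in 23 of the 54 (42.6%). Its length was a multiple of 3 bases, which keeps the reading frame, in 467 of the 574 genes (81.4%) and in 22 of the 23 (95.7%). The exons of 7 genes that the results turn on are printed to show what RNA may be gained or lost; whether the measured event is this exon is not known. Capitals mark the cassette exon, and the lower-case letters are the last 12 bases of the exon before it and the first 12 of the exon after it, all 5′ to 3′ on the strand of the gene.

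The exons of the first 4 genes go with events that had intermediate inclusion in every library. They are an 84-base exon of Golim4 at chr3:75902401-75902484 on the minus strand, a 132-base exon of Nhsl1 at chr10:18516029-18516160 on the plus strand, a 63-base exon of Evl at chr12:108683348-108683410 on the plus strand, and a 60-base exon of Dntt at chr19:41058567-41058626 on the plus strand.
Golim4: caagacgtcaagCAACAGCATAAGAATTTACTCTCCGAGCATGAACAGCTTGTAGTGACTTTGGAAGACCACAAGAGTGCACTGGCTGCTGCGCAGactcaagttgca
Nhsl1: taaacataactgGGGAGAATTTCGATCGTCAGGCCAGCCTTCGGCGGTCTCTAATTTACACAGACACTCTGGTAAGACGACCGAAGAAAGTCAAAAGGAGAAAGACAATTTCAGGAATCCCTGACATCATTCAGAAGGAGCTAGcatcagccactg
Evl: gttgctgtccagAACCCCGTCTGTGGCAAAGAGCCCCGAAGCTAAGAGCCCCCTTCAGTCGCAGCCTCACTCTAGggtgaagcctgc
Dntt: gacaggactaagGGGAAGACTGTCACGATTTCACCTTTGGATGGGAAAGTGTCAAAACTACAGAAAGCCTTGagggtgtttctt

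The exons of the other genes go with events that were near 0 or 1 in at least 1 library. They are a 30-base exon of Clstn1 at chr4:149626087-149626116 on the plus strand, a 69-base exon of Dlg5 at chr14:24202298-24202366 on the minus strand, and a 72-base exon of Gucy2c at chr6:136728331-136728402 on the minus strand.
Clstn1: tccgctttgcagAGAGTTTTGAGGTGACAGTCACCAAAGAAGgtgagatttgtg
Dlg5: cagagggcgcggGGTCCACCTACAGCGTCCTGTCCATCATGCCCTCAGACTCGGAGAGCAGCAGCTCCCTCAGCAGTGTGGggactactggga
Gucy2c: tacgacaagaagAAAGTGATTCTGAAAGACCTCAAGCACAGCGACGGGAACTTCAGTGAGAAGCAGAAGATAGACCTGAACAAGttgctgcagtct

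Inclusion differed between the pooled knockdowns and Ctr for 134 of 4658 events (2.88%) in 115 genes, with 48 events higher (1.03%) and 86 lower (1.85%) in the knockdowns. These events passed limma on the fractions at a Benjamini-Hochberg adjusted p of 0.05 over all events. The genes ranged from Golim4 of the Golgi, the actin regulators Nhsl1, Evl and Mprip and the translation factor Eif4a2 to genes best known from other organs, such as the kininogen Kng2 and the intestinal receptor Gucy2c. In every one of the 134 events the 4 knockdown libraries lay on 1 side of both Ctr libraries, as they did in 1125 of all 4658 events (24.2%). At an unadjusted p of 0.05, 568 events passed, where 232.9 would be expected if no event differed. Leaving out the first Ctr library raised the count to 287 and leaving out the second to 282, with a lone Ctr library then assumed to vary like the knockdowns. Of the 134 events, 102 and 106 passed again in these fits, and 76 to 89 passed when a knockdown library was left out.

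The differences covered the whole scale. The absolute difference of the group means had a median of 0.298 among the 134 events, against 0.0399 among all events, and started at 0.0107. It was at least 0.5 in 50 events, under 0.05 in 23 and between these in 61. The events also stood out by how close the knockdown libraries lay to each other: the median standard deviation (SD) over the 4 knockdown libraries was 0.00345, against 0.0370 over all events. A small spread helps an event pass the test, so this value describes the calls. Of the 134 events, 99 (73.9%) had a library below 0.01 or above 0.99, here called an end of the scale, against 57.1% of all events. The other 35 events in 33 genes, 20 higher and 15 lower, were intermediate in all 6 libraries and are called mid-range. With the 2000 mid-range events fitted alone, 54 (2.7%) in 43 genes passed, 27 higher and 27 lower, and 29 of these were among the 35.

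**Figure D1:**
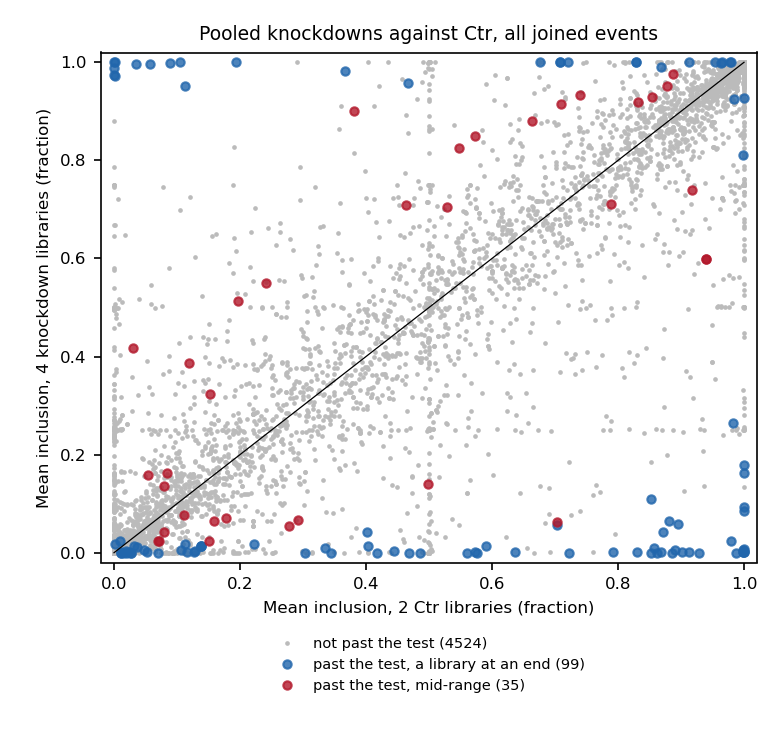
Mean inclusion frequency of each of the 4658 events in the 2 Ctr libraries (horizontal axis, fraction) against the mean in the 4 knockdown libraries (vertical axis, fraction), with the line of equal values. The 35 coloured mid-range points lie off the line within the panel, and most of the 99 events with a library at an end of the scale lie along the lower or the upper edge.

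Mean inclusion over all 4658 events was 0.458 and 0.461 in the Ctr libraries, 0.451 and 0.452 under the Raver2 hairpins, and 0.449 and 0.442 under the Setd2 hairpins. All 4 knockdown libraries lay below both Ctr libraries, by 0.0111 in the mean. The two-sided exact permutation p was 0.133, which is the smallest that 4 libraries against 2 can give. Over the mid-range events the difference was 0.000488 in the other direction (exact permutation p = 0.667), so the lower mean came from events with a library at an end of the scale. The share of fractions at an end was 34.5% and 32.5% in Ctr, 34.3% and 32.8% under Raver2 hairpins and 35.7% and 38.7% under Setd2 hairpins, a range in which the groups overlapped (difference 1.88 percentage points, exact permutation p = 0.4).

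Of 31 mid-range events of actin and cell cortex genes, 6 passed the test over all events, against 35 of 2000 mid-range events in all: those of Nhsl1, Evl, Mprip, Ablim1, Add3 and Sptan1. Nhsl1 (chromosome 10, 18318985 to 18533892, plus strand), of the Nance-Horan family that binds actin-remodelling complexes at the cell edge, had an inclusion of 0.418 and 0.343 in Ctr, 0.892 and 0.869 under Raver2 hairpins and 0.924 and 0.917 under Setd2 hairpins. Its event rose by 0.520 ± 0.0299 (standard error, SE; n = 4 against 2; limma adjusted p = 0.00221). All 4 knockdown values were above both Ctr values, and those under the Setd2 hairpins were the highest. Its annotated cassette exon is the 132-base sequence printed above. Evl (chromosome 12, 108554720 to 108688516, plus strand), an Ena/VASP protein that promotes growth of actin filaments, stood at 0.556 and 0.539 in Ctr, 0.819 and 0.831 under Raver2 hairpins and 0.848 and 0.800 under Setd2 hairpins. The event rose by 0.277 ± 0.0189 (SE, n = 4 against 2; limma adjusted p = 0.00366), and the ranges of both knockdowns overlapped each other. Mprip (chromosome 11, 59661305 to 59780860, plus strand) brings RhoA signalling and myosin phosphatase to actin fibres. Its event had 0.471 and 0.527 in Ctr, 0.155 and 0.123 under Raver2 hairpins and 0.121 and 0.163 under Setd2 hairpins. It fell by 0.358 on the fraction scale, with an SE of 0.0301 (n = 4 against 2; limma adjusted p = 0.00714), and the ranges under both targets overlapped. The events of Nhsl1, Evl and Mprip passed in each of 15 alternative settings of scale, model, filter or library left out.

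The membrane skeleton, the spectrin mesh under the plasma membrane, was represented by Add3 and Sptan1. Adducin 3, which caps actin filaments and joins them to spectrin, had an inclusion of 0.247 and 0.237 in Ctr against 0.572, 0.541, 0.536 and 0.554 in the knockdowns. The Add3 event rose by 0.309 (limma adjusted p = 0.0281), but it passed in only 9 of 15 alternative settings and was lost without the second Ctr library or without any 1 of the knockdown libraries. Sptan1, a spectrin subunit outside the naming rule and chosen after its values were seen, moved from a Ctr mean of 0.528 to a knockdown mean of 0.704. Ablim1, which links actin to signalling proteins through LIM domains, rose by 0.0874 in event 1 of 4, from 0.830 and 0.833 to between 0.910 and 0.937 (limma adjusted p = 0.0191). Its call was lost in 8 of 14 settings, among them leaving out either Ctr library, either Raver2 library or the first Setd2 library. The highest limma adjusted p over the 14 settings was 0.132.

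**Figure D2:**
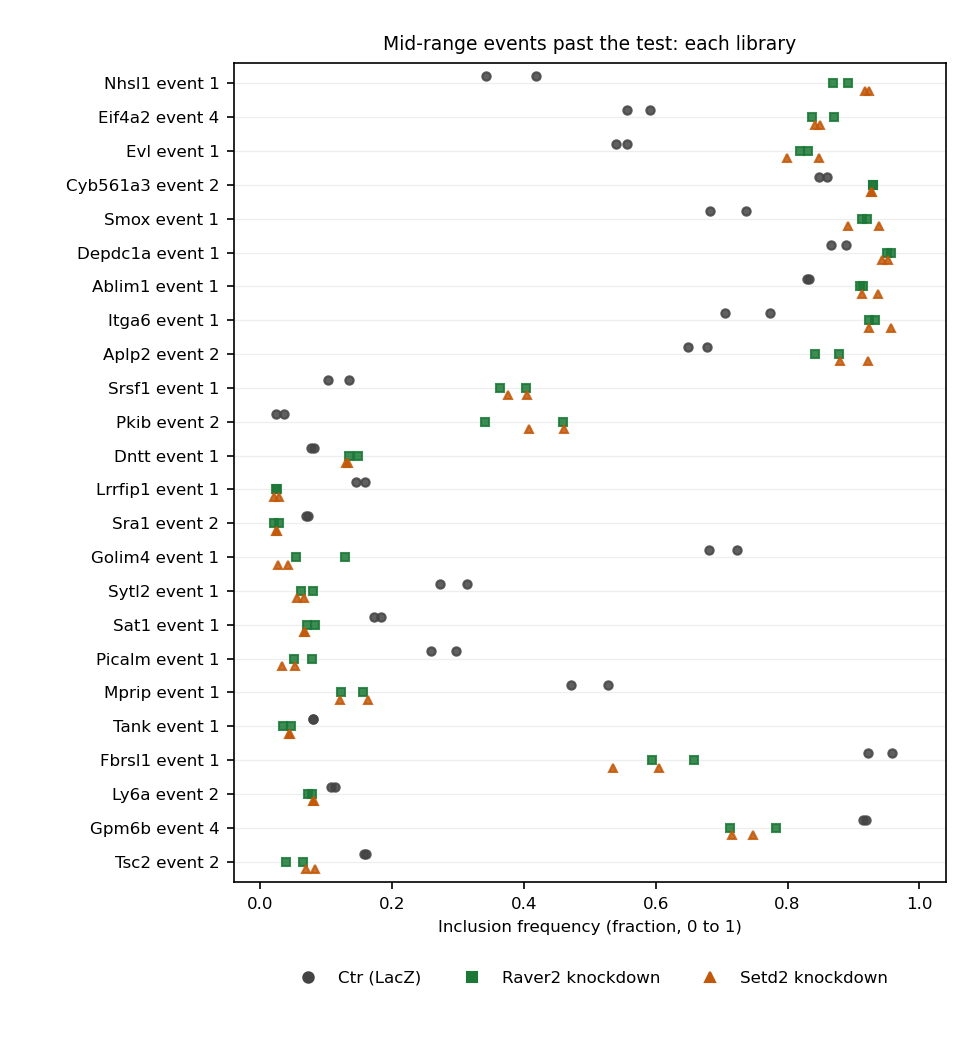
Inclusion frequency (horizontal axis, fraction from 0 to 1) of mid-range events past the pooled test, in each of the 6 libraries: dark circles are the 2 Ctr libraries, green squares the 2 Raver2 libraries and orange triangles the 2 Setd2 libraries. In every row the 4 knockdown points lie on 1 side of both Ctr points, with Nhsl1 to the right of its Ctr points and Golim4 far to the left.

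Of 44 mid-range events of Golgi, endocytosis and vesicle traffic genes, 3 passed the test over all events, against 35 of 2000 mid-range events in all. These were events of Golim4, Sytl2 and Picalm, and each fell. Over the whole list 4 of 102 events passed (3.92%), near the 2.88% over all events. Golim4 (chromosome 3, 75875084 to 75956949, minus strand), a Golgi membrane protein that cycles through endosomes, had the largest mid-range difference. Inclusion was 0.724 and 0.681 in Ctr, 0.128 and 0.0540 under Raver2 hairpins and 0.0420 and 0.0269 under Setd2 hairpins. The fall of 0.640 had an SE of 0.0405 (n = 4 against 2; limma adjusted p = 0.00282), and no knockdown value came near the Ctr values. The event passed in 15 of 15 alternative settings, and the 84-base exon printed above is the only annotated coding cassette exon of the gene. Sytl2, a synaptotagmin-like effector of Rab27 in secretion, went from 0.313 and 0.272 in Ctr to 0.0613, 0.0798, 0.0555 and 0.0662 in event 1 of 4 (limma adjusted p = 0.00311). Picalm, a clathrin adaptor of endocytosis, went from 0.258 and 0.296 to 0.0515, 0.0780, 0.0530 and 0.0333 in event 1 of 3 (limma adjusted p = 0.00521). Both events passed in 14 of 14 settings. In each of the 3 genes all knockdown values lay below both Ctr values by more than the range within either group.

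The mid-range events past the test included those of Eif4a2, Srsf1, Nxf1, Lrrfip1 and Sra1. Of the lists they touch, translation genes had 1 of 30 mid-range events past the test and SR proteins 1 of 13, while Nxf1, Lrrfip1 and Sra1 belong to no list. Eif4a2 (chromosome 16, 23107444 to 23114136, plus strand), an RNA helicase of translation initiation, had an inclusion of 0.557 and 0.590 in Ctr, 0.871 and 0.837 under Raver2 hairpins and 0.849 and 0.841 under Setd2 hairpins in the last of its 4 events. It rose by 0.276 ± 0.0172 (SE, n = 4 against 2; limma adjusted p = 0.00282) and passed in 14 of 14 settings. The groups were far apart, and the 4 knockdown libraries lay within a narrow band. Srsf1 (chromosome 11, 88047373 to 88053755, plus strand), an SR protein that promotes exon inclusion and regulates its own transcript by splicing, had 0.135 and 0.103 in Ctr, 0.364 and 0.404 under Raver2 hairpins and 0.376 and 0.405 under Setd2 hairpins. It rose by 0.268 ± 0.0313 (SE, n = 4 against 2; limma adjusted p = 0.0221), a call that was lost without the second Ctr library, without any 1 knockdown library and in the 3-group model, with an adjusted p of up to 0.0586. Nxf1, the main export receptor of mRNA, went from 0.142 and 0.162 in Ctr to 0.324, 0.331, 0.315 and 0.325 (limma adjusted p = 0.0348). It passed in 7 of 15 settings and was lost, among others, without the first Ctr library or any 1 knockdown library. Over the 15 settings its limma adjusted p reached 0.0973. Lrrfip1 (chromosome 1, 90998737 to 91128944, plus strand), a nucleic acid binding protein with roles in transcription and sensing, had a lower share in the knockdowns. It fell by 0.127 from 0.158 and 0.145 in Ctr to 0.0251, 0.0237, 0.0204 and 0.0280 (SE 0.00474, n = 4 against 2; limma adjusted p = 5.0e-04) and passed in 15 of 15 settings. Sra1, known for a steroid receptor RNA activator transcript, fell from 0.0693 and 0.0717 to between 0.0214 and 0.0280 in its event 2 (limma adjusted p = 0.00152).

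PTB itself, the partner of Raver2, had no event past the test. Inclusion of the first Ptbp1 event was 0.307 and 0.303 in Ctr and 0.238, 0.257, 0.231 and 0.259 in the knockdowns (limma adjusted p = 0.451). Its event 2 had 0.956 and 0.895 in Ctr and 0.860 to 0.905 in the knockdowns (limma adjusted p = 0.567), where the groups overlapped. Hnrnpa2b1, a heterogeneous nuclear ribonucleoprotein that binds RNA and represses exons, was the only 1 of 27 events of the hnRNP and PTB family to pass, in 11 measured genes. Its event 2 had 0.789 and 0.791 in Ctr and 0.709, 0.711, 0.718 and 0.708 in the knockdowns, a difference of -0.0778 (limma adjusted p = 0.0498). It passed in 2 of 14 alternative settings, and leaving out any library ended the call. Over all 14 settings its limma adjusted p reached 0.396.

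Further mid-range events past the test were in Itga6, Aplp2, Pkib, Tsc2, Tank and Gpm6b. Itga6, the laminin-binding integrin alpha 6 subunit, had an inclusion of 0.706 and 0.773 in Ctr, 0.923 and 0.933 under Raver2 hairpins and 0.956 and 0.924 under Setd2 hairpins. It rose by 0.194 (limma adjusted p = 0.0214). The call was lost without any 1 knockdown library and in the 3-group model, with an adjusted p of up to 0.0789. Aplp2, a relative of the amyloid precursor protein, rose from 0.649 and 0.678 to between 0.842 and 0.922 in its event 2 (limma adjusted p = 0.0214), a call lost without either Ctr library or without the first library of either target. Pkib, an inhibitor of protein kinase A, had 0.0239 and 0.0359 in Ctr and 0.459, 0.341, 0.461 and 0.408 in the knockdowns for its event 2 (limma adjusted p = 0.0245). Leaving out either Ctr library, the first Raver2 library or either Setd2 library ended the Pkib call, as did the 3-group model (adjusted p up to 0.0811). Tsc2, a brake on mTOR signalling, had 0.157 and 0.161 in Ctr and 0.0649, 0.0397, 0.0691 and 0.0833 in the knockdowns in its event 2 (limma adjusted p = 0.0374), and this call held in 6 of 14 settings, lost among others without either Ctr library, the first Raver2 library or either Setd2 library. Tank, an adaptor of NF-kB and interferon signalling, had 0.0796 and 0.0804 in Ctr and 0.0346 to 0.0470 in the knockdowns (limma adjusted p = 0.0172), and held in 7 of 14, lost without either Ctr library or either Setd2 library. Gpm6b, a membrane proteolipid of the nervous system, fell from 0.915 and 0.919 to between 0.713 and 0.782 in its last of 4 events (limma adjusted p = 0.0349). It held in 7 of 14 settings and needed both Ctr libraries, both Setd2 libraries and the second Raver2 library.

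Sat1 and Smox encode enzymes of polyamine breakdown, an acetyltransferase and spermine oxidase. The Sat1 event fell from 0.183 and 0.172 in Ctr to 0.0834, 0.0703, 0.0659 and 0.0670 (limma adjusted p = 0.00366) and passed in 14 of 15 settings. The first of 12 Smox events rose from 0.682 and 0.737 to 0.920, 0.912, 0.892 and 0.938 (limma adjusted p = 0.0154), a call lost without either Raver2 library or the second Setd2 library at an adjusted p of up to 0.0608. Cyb561a3, a cytochrome of the lysosomal membrane, had 0.860 and 0.847 in Ctr and 0.929, 0.930, 0.928 and 0.927 in the knockdowns in its event 2 (limma adjusted p = 0.00385). The event passed in 13 of 14 settings. The difference in Cyb561a3 is small, 0.0748, and rests on the near identity of the knockdown values.

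Of the 46 events of T cell and thymocyte genes, 2 passed (4.35%, near the 2.88% over all events), those of Dntt and Ly6a. Dntt, the terminal transferase that adds bases during antigen receptor assembly in lymphocytes, had an inclusion of 0.0817 and 0.0768 in Ctr and 0.148, 0.134, 0.134 and 0.130 in the knockdowns (difference 0.0574, limma adjusted p = 0.0255). Its annotated cassette exon is the 60-base sequence printed above. The call held in 6 of 15 settings, and was lost, among others, without either Ctr library, the second Raver2 library or either Setd2 library. Over the 15 settings its limma adjusted p reached 0.332. Ly6a, a surface antigen of lymphocytes and progenitor cells, had 0.113 and 0.107 in Ctr and 0.0718 to 0.0807 in the knockdowns in event 2 of 7 (limma adjusted p = 0.0302). It held in 3 of 13 settings, and leaving out the first Ctr library or any 1 knockdown library ended the call. Leukocyte RNA was not measured as such, and its part in these fractions was not tested.

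Events at the ends of the scale gave the largest differences, of up to the whole scale. By group mean, 2 events went from below 0.01 in Ctr to above 0.99 in the knockdowns, and 7 went the other way. Kng2 (chromosome 16, 22985854 to 23029482, minus strand), a liver kininogen, and Slc10a7 (chromosome 8, 78509346 to 78734003, plus strand), a transporter of the bile acid carrier family, were the events that went up: both Ctr libraries were below 0.01 and all 4 knockdown libraries above 0.99. Besides Lin7a event 2 and A730056A06Rik, the opposite was listed for Gucy2c, the guanylin receptor of the intestine, Lrrc4c, a synaptic adhesion protein, Sphk1, a kinase that makes sphingosine 1-phosphate, Atp6v1c2, a subunit of the proton pump, and Dlg5, a scaffold of cell polarity. In each of these 5 genes both Ctr libraries were above 0.99 and all 4 knockdown libraries below 0.01, with a limma adjusted p of 3.3e-04. The annotated cassette exons of Gucy2c and Dlg5 are printed above. Among all lower events, 44 of 86 had all 4 knockdown libraries below 0.01, and among all higher events 19 of 48 had all 4 above 0.99. With no read count, such a fraction may rest on many reads or a handful, and the part of low coverage in these events was not tested.

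Some genes held events that moved in opposite directions. Lin7a (chromosome 10, 107271686 to 107421474, plus strand), a PDZ scaffold of epithelial polarity and synapses, had 0.0440 and 0.0271 in Ctr and 0.998, 0.998, 0.998 and 0.995 in the knockdowns for its event 1. For its event 2 both Ctr libraries were above 0.99 and the knockdowns had 0.00196, 0.00201, 0.00219 and 0.00515. In every library 1 of these events was at 0.0440 or less and the other above 0.99. In all, 5 of the 115 genes had events past the test in both directions, and 16 had at least 2 events past it, so the 134 events are not 134 independent observations. Of them, 5 repeated the values of an earlier event of their gene, such as the tenth event of Ank1, which repeats the sixth.

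Other events began at a low or intermediate level in Ctr and were near absent in the knockdowns. Ebf3, a transcription factor of the early B cell factor family, had 0.127 and 0.130 in Ctr against 0.00203, 9.4e-04, 0.00537 and 0.00506 in its event 1 (limma adjusted p = 7.6e-05). The reverse, from absent to near full inclusion, was listed for Fcrl5, an Fc receptor-like gene of B cells. Both Ctr libraries were below 0.01 and the knockdowns at 0.988, 0.985, 0.985 and 0.993. Clec4b1, a C-type lectin of dendritic cells, was below 0.01 in both Ctr libraries and at 0.899 or more in the knockdowns, and Cd209b, a lectin of macrophages, was below 0.01 in Ctr and at 0.892 or more in the knockdowns for its event 3. Slit2, a secreted guidance cue, had 0.959 or more in both Ctr libraries and 0.0162 to 0.0282 in the knockdowns for its event 3 (limma adjusted p = 4.7e-04). In each of these genes the gap between the groups was many times the range within them. Clstn1, a calsyntenin of neural and other membranes, showed a wider range: 0.401 in both Ctr libraries, 0.0969 and 0.0759 in Raver2 sh1 and Setd2 sh2, and below 0.01 in the other two (limma adjusted p = 0.0141). The Clstn1 call was lost on the log-odds and arcsine scales and without either Ctr library, with an adjusted p of up to 0.303.

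Counted by function, actin and cortex genes had 14 of 114 events past the test (12.3%), 9 higher and 5 lower, in 12 of 51 measured genes (23.5%). Over all events the shares were 2.88% of events and 4.28% of genes. The 14 and the 9 include the tenth event of Ank1, which repeats the values of the sixth. Besides the mid-range members described above, the list held events at the ends of the scale. Fnbp1, a membrane-bending partner of actin assembly, had 0.453 and 0.484 in Ctr and was below 0.01 in all 4 knockdown libraries for its event 2 (limma adjusted p = 1.8e-04). Pak3, a kinase acting downstream of Rac and Cdc42, had 0.105 and 0.00880 in Ctr and 0.991 or more in the knockdowns in its last of 4 events (limma adjusted p = 3.7e-04). Ank1, an ankyrin that ties membrane proteins to spectrin, had 0.814 and 0.842 in Ctr and above 0.99 in all knockdown libraries in its sixth of 11 events (limma adjusted p = 0.00128). Fnbp1, Pak3 and Ank1 passed in 13 of 13 settings. The list was chosen with earlier results of these data known and has more events per gene than the whole set, so its share is a description.

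Extracellular matrix and integrin genes had 7 of 36 events past the test (19.4%), 2 higher and 5 lower, in 4 of 20 measured genes, and 4 of the 7 were events of Serpinh1. Serpinh1 (chromosome 7, 99345376 to 99353239, minus strand) encodes HSP47, the collagen chaperone of the endoplasmic reticulum. Its event 3 had 0.0276 and 0.0263 in Ctr and was below 0.01 in all 4 knockdown libraries (limma adjusted p = 2.8e-04), and the Ctr means of the 4 events, between 0.0204 and 0.577, stood against knockdown means below 0.01. Fn1, fibronectin, had 0.135 and 0.120 in Ctr and below 0.01 in all 4 knockdown libraries in event 2 of 5, a fall of 0.127 (limma adjusted p = 4.7e-04; 13 of 13 settings). Vcan, the proteoglycan versican, was less firm: its event 3 was below 0.01 in the first Ctr library and 0.388 in the second, against above 0.99 in the knockdowns. The Vcan call (limma adjusted p = 0.0374) was lost without any 1 knockdown library, at an adjusted p of up to 0.120. The fibroblast list shares Fn1 with this group: 2 of its 9 events in 4 measured genes passed, Fn1 and Prrx1, both lower. All 4 knockdown libraries lay at least 0.1 above both Ctr libraries in 1 of the 9 events and at least 0.1 below in 2. Prrx1, a mesenchymal transcription factor, had 0.325 and 0.345 in Ctr and 0.00790, 0.00969, 0.0128 and 0.00721 in the knockdowns (limma adjusted p = 1.5e-04). The other measured genes of that list, Col6a3 and Postn, had no event past the test. Human dermal fibroblasts were present in every culture, and whether their RNA took part in these fractions was not tested.

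**Figure D3:**
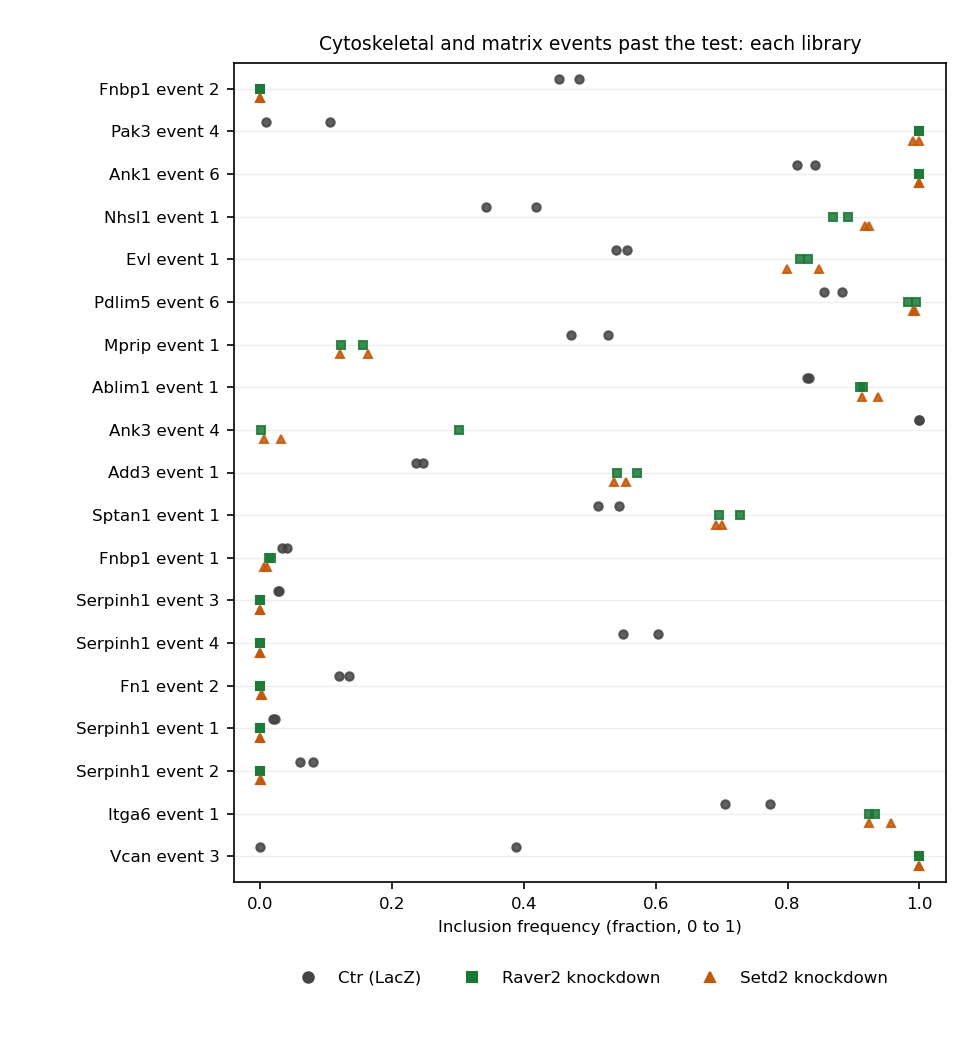
Inclusion frequency (horizontal axis, fraction from 0 to 1) in each library for events of actin, cortex, matrix and integrin genes past the pooled test, with Ctr as dark circles, Raver2 as green squares and Setd2 as orange triangles. Fnbp1 event 2, the Serpinh1 events and the Fn1 event reach the left edge in all 4 knockdown libraries, while Pak3, Ank1 and Vcan reach the right edge.

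Genes with exons known to switch between epithelial and mesenchymal cells had 6 of 90 events past the test (6.67%), 3 higher and 3 lower, in 6 of 34 measured genes. They were Fn1, Mprip, Clstn1, Ablim1, Itga6 and Cask, and 5 of these have their values above. Solute carriers had 5 of 68 events past the test (7.35%), 2 higher and 3 lower. Besides Slc10a7 they included Slc4a4, Slc25a25 and Slc37a2. Slc4a4, a bicarbonate transporter, had 0.783 and 0.999 in Ctr and 0.0102 or less in the knockdowns (limma adjusted p = 0.00507). Slc25a25, a mitochondrial ATP carrier, had 0.0108 and 0.0125 in Ctr and below 0.01 in the knockdowns (limma adjusted p = 0.0148). The Slc25a25 call was lost on the arcsine scale and without a variance trend, at a limma adjusted p of up to 0.224. Golgi, endocytosis and vesicle genes had 4 of 102 (3.92%), 1 higher and 3 lower, a share near the 2.88% over all events. Bin1, a membrane-curving protein, was the higher one, below 0.01 in Ctr and 0.0146 to 0.0205 in the knockdowns (limma adjusted p = 0.0194), and it was lost without either Ctr library or either Setd2 library. Tissue-restricted antigens had 2 of 25 events past the test (8%), Kng2 and Mbp, 1 in each direction. At an unadjusted p of 0.05, limma passed 3 of the 25 (12%), against 12.2% of all events. None of the 25 was mid-range. Mbp, the myelin basic protein, had an inclusion in event 2 above 0.99 in the first Ctr library, 0.585 in the second and below 0.01 in the knockdowns (limma adjusted p = 0.0498). That call held in 3 of 13 settings and was lost without any 1 knockdown library.

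Other lists with a share near that of all events were hnRNP and PTB genes with 1 of 27 events (3.70%), apoptosis and DNA repair with 2 of 57 (3.51%), translation with 2 of 49 (4.08%) and unnamed or predicted genes with 5 of 203 (2.46%). The 5 include events 2, 7 and 12 of Gm3286, which hold the same values as each other. In the apoptosis list, Birc5, the inhibitor survivin, had 0.00838 and 0.0115 in Ctr and 0.0226 to 0.0253 in the knockdowns, and Cflar, an inhibitor of death receptor signalling, had 0.996 or more in Ctr and 0.763 to 0.844 in the knockdowns for its event 2. Both had a limma adjusted p under the threshold, 0.0170 and 0.0310. Birc5 was lost without either Raver2 library or the first Setd2 library, and Cflar without either Ctr library, either Raver2 library or the second Setd2 library. Small GTPase regulators had 1 of 85 (1.18%), Arhgef10l, a guanine nucleotide exchange factor, with 0.0282 and 0.0244 in Ctr and below 0.01 in every knockdown library.

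No event passed among 68 of other splicing factors, 94 of chromatin modifiers, 148 of zinc finger genes and 20 of thymic epithelial, MHC and antigen processing genes. The nearest splicing factor was Luc7l, a component of the U1 particle, whose event 2 had 0.243 and 0.354 in Ctr and 0.531, 0.589, 0.554 and 0.563 in the knockdowns (limma adjusted p = 0.0990). It passed in 3 of 14 settings, among them the fit of mid-range events alone (limma adjusted p = 0.0477). In these values the groups did not overlap, but the Ctr libraries differed by more than the knockdown libraries did. The nearest chromatin gene was Hdac7, a histone deacetylase, with 0.760 and 0.775 in Ctr and 0.849, 0.884, 0.909 and 0.909 in the knockdowns for its event 4 (limma adjusted p = 0.0772), and it passed in 2 of 14 settings. At an unadjusted p of 0.05, limma passed 11 of the 68, 15 of the 94, 14 of the 148 and 6 of the 20 events (16.2%, 16.0%, 9.46% and 30%), against 12.2% of all events. Aire events 1, 2, 3 and 8 were among the 6, so the 30% rests largely on 1 gene. A missed threshold does not show that the groups were alike.

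**Figure D4:**
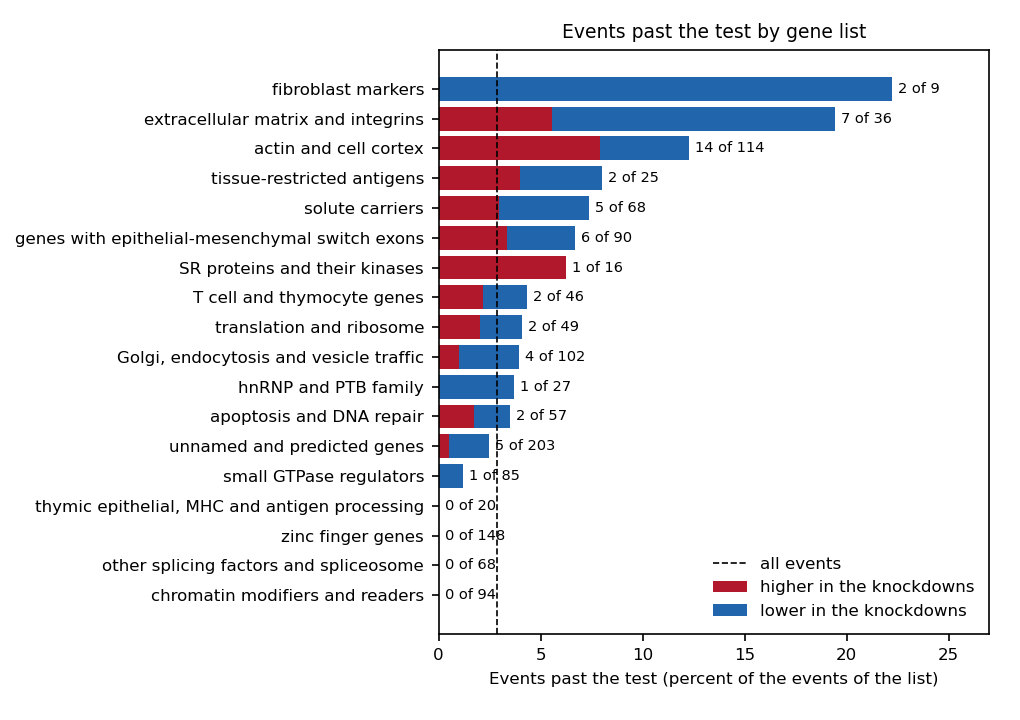
Share of the events of each gene list that passed the pooled test (horizontal axis, percent), split into events higher and lower in the knockdowns, with the number of events beside each bar and the share over all 4658 events as a dashed line at 2.88%. The actin, matrix and fibroblast lists extend farthest beyond the line, the fibroblast list on 2 of 9 events.

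Aire itself had 9 listed events, all with a library at an end of the scale, and none passed the pooled test. In the first event both Ctr libraries were below 0.01 and the knockdowns had 0.108, 0.122, 0.0846 and 0.0677 (limma adjusted p = 0.0796). In the second, Ctr was again below 0.01, with 0.190, 0.168, 0.118 and 0.110 in the knockdowns (limma adjusted p = 0.0901). In the third the Ctr libraries were above 0.99 and the knockdowns at 0.892, 0.890, 0.925 and 0.933 (limma adjusted p = 0.0779). In these events the groups did not overlap, as in 24.2% of all events, and the Raver2 libraries lay farther from Ctr than the Setd2 libraries. Each of the 3 passed in 3 of 13 alternative settings: the log-odds scale, the arcsine scale and the 3-group model. The lowest limma adjusted p in these was 0.00587 for event 1 and 0.00557 for events 2 and 3. Event 8 had Ctr above 0.99 and knockdowns at 0.835 to 0.922 (limma adjusted p = 0.116). It passed in 2 of 13 settings, the log-odds and arcsine scales, with a lowest limma adjusted p of 0.00893. Events 4 and 9 held the same values as each other, event 7 was near 0 in some libraries and near 1 in others of every group, and events 5 and 6 were close to 1 in all libraries. At an unadjusted p of 0.05, 4 of the 9 events passed limma, where 568 of all 4658 events did (12.2%).

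Within the pooled calls the targets gave close values. The median absolute difference between the Raver2 and the Setd2 mean was 0.00189 over the 134 events, against 0.0261 over all events. Of all 4658 events, 34 (0.73%) differed between Raver2 and Setd2 knockdown at a limma adjusted p of 0.05 in a model with 3 groups, and none of the 134 was among them. At an unadjusted p of 0.05, 4 of the 134 (2.99%) passed, against 6.12% of all events. The pooled fit counts a difference between targets as spread, so an event in which they differ is less likely to be among the 134, and these shares do not test whether the targets act alike. The 95% interval of the Raver2 minus Setd2 difference had a median half-width of 0.0757 over the 134 events, so differences of that size could not be told from 0. The largest difference was in Sema3b, a secreted semaphorin chosen here for its value: its event 2 had a mean of 0.00410 under Raver2 hairpins and 0.213 under Setd2 hairpins. Next were Dmtn, an actin-bundling protein, with 0.185 under Raver2 and below 0.01 under Setd2, and Steap2, a metalloreductase, with 0.346 against 0.182 in its event 2.

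**Figure D5:**
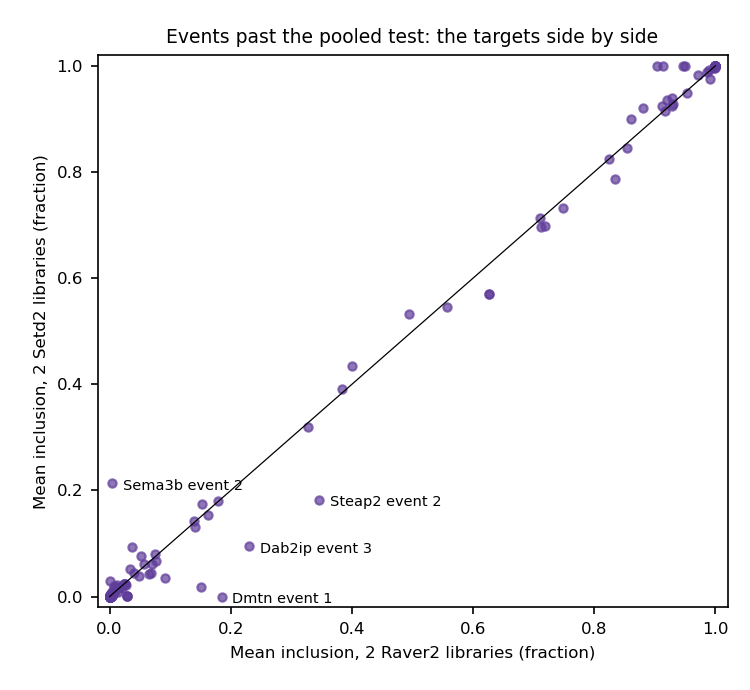
Mean inclusion frequency in the 2 Raver2 libraries (horizontal axis, fraction) against the mean in the 2 Setd2 libraries (vertical axis, fraction) for the 134 events past the pooled test, with the line of equal values and the names of the events with the largest differences. Most points lie along the line, and Sema3b event 2 stands above it at 0.00410 against 0.213.

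A count that uses no estimate of spread gave a partly different set. All 4 knockdown libraries lay apart from both Ctr libraries by at least 0.1 in 209 events (4.49%) in 174 genes, 86 higher and 123 lower. Of these, 91 were also past the test, which is 43.5% of the 209 and 67.9% of the 134. Mid-range events made up 74 of the 209, with 41 higher and 33 lower. Luc7l, in its event 2, is an example of an event apart by the gap that did not pass the test. Dntt, Cyb561a3 and Serpinh1, in its event 3, passed it with a smaller gap. Leaving out the first Ctr library raised the 209 events to 474 and leaving out the second raised them to 528, since each Ctr library bars events that the other allows.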

How the data were processed

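Inclusion frequencies of alternative splicing events, deposited by the authors as a fraction from 0 to 1 per event with a gene symbol, were used for all 6 libraries. Per the labels' protocols, libraries were made from total RNA with SMART-seq v4 and Nextera XT kits. Trimmomatic 0.39, TopHat2, Cufflinks and mm10 are named per the submitters' processing notes, with no settings. For the method behind the fraction and its coverage, the sources used here state nothing, so counting error cannot be separated from other spread.

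Events were joined by gene symbol and order within the gene, keeping genes with the same number of events in all 6 libraries. At the same position, Pearson's r between libraries was 0.742 to 0.802 in genes with several events, against 0.0863 to 0.133 with the order shifted by 1. Of the events kept, 161 repeat the values of an earlier event of their gene. limma 3.58.1 in R 4.3.3 was fitted to the fractions with a knockdown and a Ctr group and a variance trend, two-sided, with Benjamini-Hochberg adjustment over 4658 events, after being tested on simulated data. A model with 3 groups gave Raver2 minus Setd2, and library means were compared by exact permutation. Python 3.11.15 with pandas 2.3.3 and numpy 2.4.6 did the rest.

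The alternatives were a log-odds scale (offset 0.01), an arcsine scale, no variance trend, a robust variance, 3 groups, mid-range events, events spanning at least 0.05, genes with 1 event, identical events counted once, and each library left out. Named are, among events past the threshold, the 15 higher and 15 lower with the largest moderated t over all and over mid-range events, 1 per gene, up to 4 per gene list (the nearest where none passed), Aire and Ptbp1; others are marked, and some genes that the rule picks are not reported here. The comparison, the lists and the naming rule were chosen with earlier results of these data known.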

Additional observations from a re-analysis of the deposited data

Results flagged for a closer look

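In 16 of 83 named events 1 of the 4 knockdown libraries stood apart from the other 3 by Dixon's ratio at the 95% level, which chance does in about 1 in 20 groups. Many of these differ only in decimals next to 0 or 1, where the ratio has no floor. Setd2 sh2 was the library apart in Ablim1 event 1 (0.937, the highest), Lin7a event 1 (0.995), Lin7a event 2 (0.00515), Pak3 event 4 (0.991), Nrep event 1 (5.2e-12) and Ank1 event 6 (1 to 6 digits). Setd2 sh1 was apart in Slit2 event 3 (0.0162), Slc10a7 event 5 (0.999) and Aire event 6 (1 to 6 digits). Raver2 sh2 was apart in Cd209b event 3 (0.892), Clec4b1 event 1 (0.899), Sphk1 event 1 (0.00698), Serpinh1 event 3 (1.6e-10) and Knop1 event 1 (0.999952). Raver2 sh1 was apart in Aire event 5 (0.999) and Vcan event 3 (1 to 6 digits). In Cd209b and Clec4b1 the library apart lay nearer to Ctr than the other 3 did, yet far from both Ctr libraries.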

How the results depend on the processing

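Every one of the 134 events kept its direction in each of the 15 alternative settings that could fit it. This outcome was fixed in advance, because the groups did not overlap in any of the 134, and it does not show robustness. The number passing again was 101 on the log-odds scale, 109 on the arcsine scale, 116 without a variance trend, 125 with a robust variance and 102 with 3 groups. Counts of events past the test (in all, higher, lower) differed by over 1.5 times from 134, 48 and 86 with mid-range events alone (54, 27 and 27) and with genes of 1 event (61, 18 and 43), where fewer events were tested. With a library left out they ran from 104 to 287, 32 to 103 and 66 to 185, highest without a Ctr library. The counts with a gap of at least 0.1 (209, 86 and 123) became 108, 34 and 74 with a gap of 0.2, 346, 151 and 195 with 0.05, 74, 41 and 33 over mid-range events and 77, 25 and 52 in genes with 1 event. With a library left out they ran from 260 to 528, 100 to 221 and 154 to 307. Mean inclusion, knockdown minus Ctr, was -0.0111 over all events, 0.000488 over mid-range events and -0.0128 to -0.00910 with a library left out, and the difference in the share at the ends (1.88 percentage points) ran from 0.773 to 2.87 with a library left out and was 0.156 for fractions of exactly 0 or 1. Between Raver2 and Setd2, 3 of the 134 events passed on the log-odds scale and none on the fraction scale; the cause was not tested. No paired analysis was possible because sh1 and sh2 name different hairpins and the Ctr libraries carry no number. Depth is unknown, events have no coordinates, and 4 libraries against 2 limit every test.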
